A study of Mus musculus with 12 samples.

Results

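Melanoma cells that were sorted from relapsed tumors and lysed at once were compared with melanoma lines that had been grown out of relapsed tumors in culture, to ask which gene programs of the tumor were no longer seen after culture. The members are the 6 libraries that the sample titles name Tumor1, Tumor3 and Tumor4 (the Tumor group) and ITF1, Rel and ITM (the relapsed lines), out of 12 libraries in the series. All of them derive from B16F10, a pigmented melanoma cell line of C57BL/6 mice. The cells of both groups were injected under the skin of 6-week-old C57BL/6 mice and treated with immunotherapy after some days. That age is from the labels, while the study's methods give an older age range for its mice, of both sexes. The study's methods give that therapy as intratumoral anti-CD40, TNFα and the tumor-binding antibody anti-TRP1, while the labels say only that it was immunotherapy. Tumor cells were isolated by flow sorting in both groups. The groups therefore share the strain, the host and a label of immunotherapy, and the lines were cultured to confluency before RNA extraction. The study also made lines from tumors that relapsed after gp100-reactive T cell transfer. The labels do not say which regimen either group had, so a difference in therapy cannot be told apart from culture. The labels name no engineered allele in either group. The study's methods describe warm enzymatic digestion of tumors ahead of cell preparation, and the Tumor cells were lysed straight after sorting, so this handling cannot be told apart from the group. The labels do not say how long after therapy either group was taken. The study's text places the sorting of its tumor cells days after immunotherapy and gives no interval for the lines. The sorting gate is not given in the sources used here, nor is the meaning of the names ITF1, Rel and ITM, nor whether each library came from a separate mouse. The protocol text counts the tumors 1 to 3, whereas the titles read 1, 3 and 4. Untreated B16F10 cells in culture (WT, 3 libraries) are given as levels beside the comparison, and 3 libraries of cells incubated with T-cell-derived lysosomes (Lyso) entered the fit only.

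A melanoma cell in a tumor lies among fibroblasts, vessels and leukocytes, receives growth factors and cytokines from them, and can be short of oxygen. Growth factor and stress signals switch on the immediate early genes, which need no new protein for their transcription and encode transcription factors such as FOS, JUN and EGR1. Interferon from T cells and NK cells acts through JAK and STAT proteins and raises the genes of antigen presentation. In a culture dish, serum is the main source of growth signals and none of these neighbours are present.

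The Tumor libraries held 3102442 to 5049496 counts on genes and the relapsed lines 12749399 to 16402629, so depth and group cannot be told apart in the counts as deposited. A count of 3, taken as the floor of detection in a library, stood for 0.604 to 0.975 CPM (reads of a gene relative to the scaled size of its library) in Tumor and for 0.18 to 0.23 CPM in the lines. It covers counting error only. WT1, WT2 and WT3 held 1667398, 2350129 and 16384021 counts on genes, and the floor there stood for 1.70, 1.27 and 0.177 CPM. Mitochondrial genes took 2.695% to 3.097% of the gene counts in Tumor and 3.334% to 5.513% in the lines. Between replicates, the counts of a gene varied by 11.5% (biological coefficient of variation) in Tumor and by 24.7% among the lines, and by 11.4% and 23.5% after all 6 libraries were thinned to 3102442 counts. The p-values below measure the spread between replicates over all 12 libraries in the fit, WT and Lyso among them. That spread may be partly technical.

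Of 14924 genes tested with edgeR, 1247 were higher in Tumor and 344 were lower, counting genes that differed by more than 1 on the log2 scale with a p, adjusted after Benjamini and Hochberg, below 0.05. These are 8.36% and 2.31% of the genes tested, and "called" below means past both limits. The numbers of called members in the gene lists below are to be read against these 2 shares. The median log2 fold change over all genes tested was -0.01. Among the called genes, 1217 of the higher ones and 338 of the lower ones had no overlap between the 3 Tumor libraries and the 3 lines. Over all genes tested, every Tumor library was above every line in 20.1% and below in 17.4%. The differences were also lopsided in size, with 681 higher and 36 lower genes that differed by more than 3 on the log2 scale. Scaling the libraries on 20 melanocyte identity genes in place of all genes moved the median to 0.27 and the share of higher calls from 78.4% to 92.5%. With that scaling 1552 genes were higher and 126 lower, and it kept 1236 of the higher calls and 125 of the lower ones. With all 6 libraries thinned to 3102442 counts, 809 genes were higher and 276 lower. Set against untreated culture, 1113 of the 1247 higher genes were above all 3 WT libraries in every Tumor library. In every line, 70 of them were above all WT libraries. The like count for the lines over all genes was not made, so the 70 is not read further. Over all 14924 genes tested, 3134 were above all WT libraries in every Tumor library. The 1247 genes had already been chosen as high in Tumor.

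**Figure D1:**
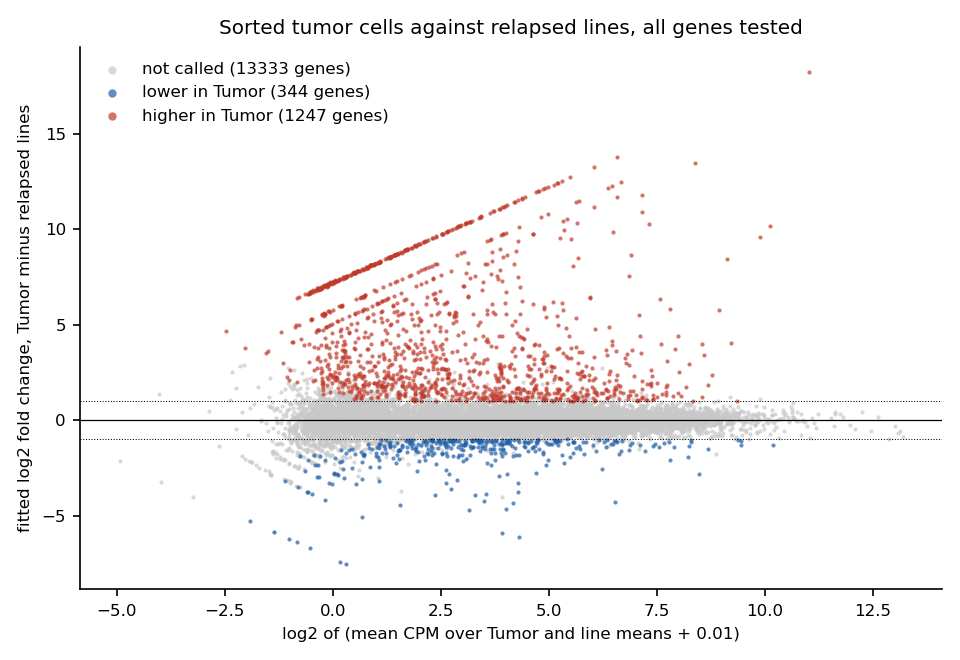
Fitted log2 fold change (Tumor minus relapsed lines) against the log2 mean CPM for the 14924 genes tested, one point per gene, with dotted lines at 1 and -1. The 1247 called higher genes reach far greater fold changes than the 344 lower ones. The straight upper edge is formed by genes with no counts in any line, whose fitted value depends on a small constant added in the fit.

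Because the lines are the deeper libraries, a gene at the floor there and above it in all Tumor libraries is not a matter of depth. There were 400 such genes, 364 of them protein-coding, and 217 had no count in any line. They were also at the floor in all WT libraries in 364 cases, though WT1 and WT2 are shallower than every Tumor library. The mean Tumor level passed 10 CPM for 115 of them and reached 4155 CPM for Col3a1. Of the 10 with the highest Tumor level, 7 encode extracellular matrix proteins (Col3a1, Dcn, Col6a1, Col6a2, Col6a3, Tnc and Fbln2) and 2 belong to complement (C3, its central component, and Serping1, the C1 inhibitor). The last is Pi16, which stood at 100 CPM in Tumor1, 169 in Tumor3 and 125 in Tumor4 and had no count in any line. Below the first 10 came, among others, Saa3, Lbp, Ptgs2, Ly6a and Igfbp5, which were picked after their values were seen. In the opposite direction 744 genes were above the floor in every line and at the floor in Tumor. The floor stands for a higher CPM in the shallower Tumor libraries, so the 2 numbers cannot be set against each other.

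Markers of other cell types, fibroblasts above all, were higher in Tumor than in the lines, and whether they came from other cells in the sort or from the melanoma cells was not tested. In bulk RNA, fewer cells of a type and less RNA per cell cannot be told apart. The fibroblast markers stood apart most: 10 of 10 were called higher, and their summed level was 10475 CPM in Tumor1, 8610 in Tumor3 and 7515 in Tumor4 against 14.5 to 23.1 CPM in the lines. Col3a1, a fibrillar collagen (chromosome 1 of GRCm38, 45311538 to 45349706), was at 4938, 4157 and 3369 CPM in Tumor1, Tumor3 and Tumor4 and had no count in any line, so it was at least 18035-fold higher. Decorin (Dcn), a small matrix proteoglycan, was at 271, 300 and 286 CPM in Tumor and between 0 and 0.134 CPM in the lines (log2 fold change 11.79 ± 0.34 SE, adjusted p = 8.22e-10). Of 7 endothelial markers tested, 6 were called higher (3 with libraries thinned to one depth), at far lower levels: the whole list of 10 summed to 50.1 to 55.6 CPM in Tumor and to 2.15 to 23.8 CPM in the lines, where Vwf made up most of it. The vascular receptor gene Kdr was at 4.55, 4.43 and 3.77 CPM in Tumor and had no count in any line (at least 18.4-fold higher). The macrophage and monocyte list summed to 45.8 CPM in Tumor1, 56.2 in Tumor3 and 68 in Tumor4, against 8.97 to 12.1 CPM in the lines, and 6 of 7 tested members were called. Ptprc, which encodes the pan-leukocyte protein CD45, was at 1.95, 2.21 and 5.88 CPM in Tumor and at 0.359 CPM or less in the lines. Other types were scarce. Cd3d and Cd3e, which define T cells, had no count in any of the 6 libraries, all 7 neutrophil, all 7 NK and cytotoxic, and all 6 keratinocyte markers were at the floor in every Tumor library, and 8 of 10 T cell markers were too. Pericyte and smooth muscle genes were called in 4 of 7 cases, the single adipocyte (Fabp4) and erythroid (Hbb-bs) markers tested were called higher below 4 CPM, and 0 of 4 B cell, 0 of 2 dendritic cell and 0 of 3 skeletal muscle markers were called by edgeR. At an unadjusted p under 0.05 these were 3, 0 and 2, and DESeq2 called 0 in each. Leaving out Tumor3 or Tumor4 ended the call of Esam, an endothelial junction gene. The calls of Cd8a and Gzmb, 1 T cell and 1 cytotoxic marker at or below 0.942 CPM, ended without any of several libraries, Tumor4 among them, and are not read further.

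Most melanocyte identity genes were high in all 6 libraries, as the label of melanoma cells requires. The melanin enzyme gene Dct was at 7471, 7560 and 7208 CPM in Tumor1, Tumor3 and Tumor4 and at 6747, 12329 and 8236 CPM in ITF1, Rel and ITM (log2 fold change -0.30 ± 0.22, adjusted p = 0.389). Sox10, the lineage transcription factor, ran from 557 to 582 CPM in Tumor and from 590 to 720 in the lines. The 20 identity genes summed to 24602 to 27229 CPM in Tumor and to 27322 CPM in ITF1, 35068 in ITM and 44601 in Rel. Within the list, 2 genes were called higher and 2 lower (10% each, against 8.36% and 2.31% of all genes), with a median log2 fold change of -0.27. At the adjusted p alone, 2 were higher and 5 lower. Every Tumor library was below every line in 7 genes and above in 2, against 17.4% and 20.1% of all genes tested. Mitf, the master regulator of the lineage (chromosome 6, 97807052 to 98021349), was at 925, 806 and 922 CPM in Tumor and at 424, 446 and 440 CPM in the lines. All Tumor libraries lay above all lines (log2 fold change 1.02 ± 0.24, adjusted p = 0.00936). Its fold change sat at the limit: without ITF1, Tumor1 or Tumor4 it was 0.99, 0.99 and 0.98. Mlana, a melanosome antigen that MITF is known to activate, went the other way, at 676, 675 and 677 CPM in Tumor against 1069, 2049 and 1848 CPM in the lines (log2 fold change -1.29 ± 0.22, adjusted p = 0.00111). Gpr143, a melanosome receptor, was lower as well at 29.2 to 37.7 against 42.3 to 98.6 CPM (-1.15 ± 0.27, adjusted p = 0.00897), and not past the fold limit without Rel. Tyrp1, the target of the tumor-binding antibody, was at 5946, 6779 and 7325 CPM in Tumor and at 11084, 13427 and 11700 CPM in the lines. The groups did not overlap, and the difference passed the adjusted p but not the fold limit (-0.85 ± 0.18, adjusted p = 0.00564). Pmel did not pass either at 3172 to 3922 against 2113 to 5770 CPM (adjusted p = 0.637). Scaled on the identity genes themselves, 2 members of the list were higher and 0 lower. The endothelin receptor gene Ednrb, called higher, stood at 1.95 CPM or less. Among the lines, ITF1 had the lowest value of 17 of the 20 genes and Rel the highest of 16.

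**Figure D2:**
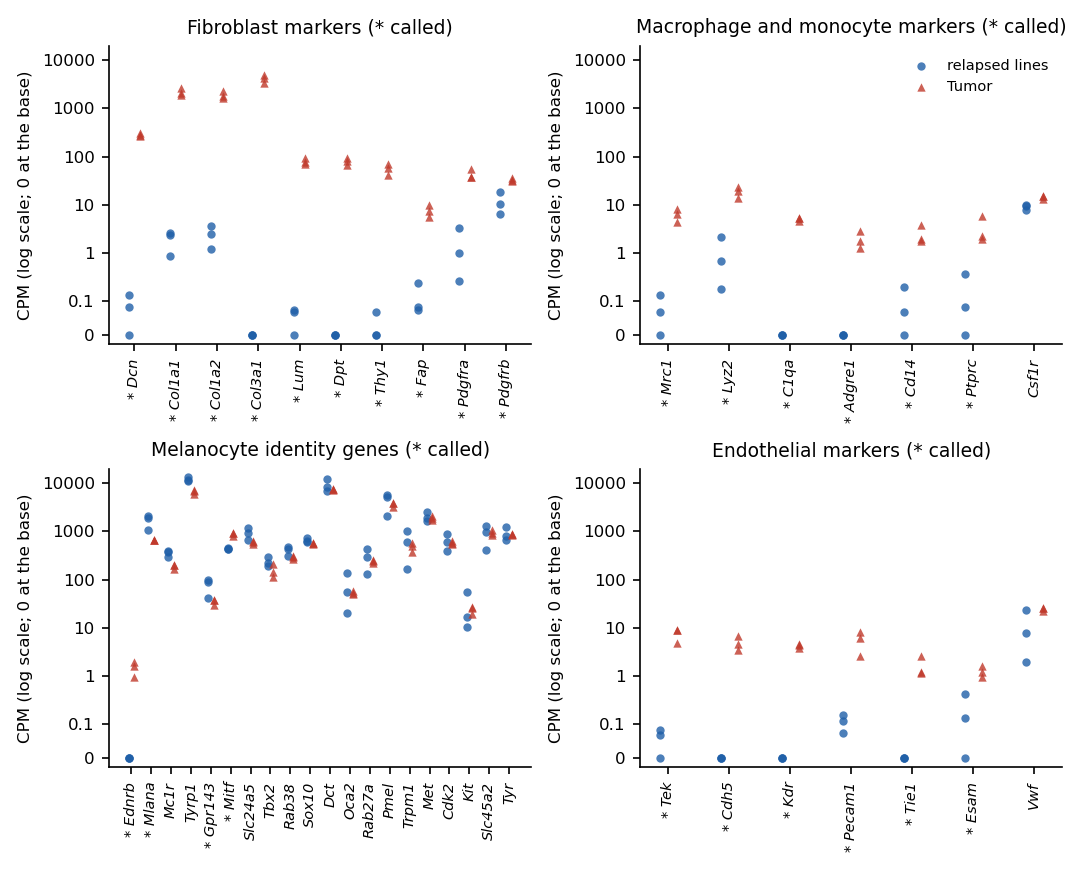
CPM on a log axis of marker genes in the 3 Tumor libraries (triangles) and the 3 relapsed lines (circles), genes ordered by p, with zeros drawn at the base and an asterisk on called genes. Col3a1 reaches 4938 CPM in Tumor with no count in the lines, macrophage and endothelial genes stay below 30 CPM, and most melanocyte genes overlap between the groups.

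The immediate early genes separated the groups for every member tested. Of 28 tested members 26 were called higher and 0 lower, against 8.36% of all genes, and in each of the 28 every Tumor library lay above every line, as was the case for 20.1% of all genes tested. The list's median log2 fold change was 3.39. Summed, it came to 8399 CPM in Tumor1, 6860 in Tumor3 and 8523 in Tumor4, and to 1020, 1068 and 640 CPM in ITF1, Rel and ITM, with 872 to 1077 CPM in WT. The number called stayed between 26 and 27 when any library was left out. The fibroblast marker sum moved with the group as well (7515 to 10475 against 14.5 to 23.1 CPM), and its part in these values was not tested. Digestion and sorting just before lysis cannot be told apart from the group.

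The zinc finger factor gene Klf4 (chromosome 4, 55527143 to 55532466) was at 394, 312 and 433 CPM in Tumor1, Tumor3 and Tumor4 and at 3.46, 4.28 and 6.05 CPM in ITF1, Rel and ITM. The groups were far apart (log2 fold change 6.35 ± 0.24, adjusted p = 2.79e-09). Fosb, an AP-1 subunit, stood at 1228, 904 and 1184 CPM in Tumor and at 1.54, 5.69 and 2.34 CPM in the lines (8.42 ± 0.41, adjusted p = 2.57e-08), the largest change of the list. Its relative Fos was at 878, 969 and 1032 CPM against 4.76, 37.5 and 10.7 CPM (5.76 ± 0.58). Among the lines, Rel was high for both. The orphan nuclear receptor genes moved together: Nr4a2 was at 164, 91 and 135 CPM in Tumor and between 3.83 and 5.99 CPM in the lines, Nr4a1 reached 552 to 831 against 26 to 56.5 CPM, and Nr4a3 373 to 519 against 7.45 to 56.2 CPM. Egr1, a zinc finger factor that growth factors induce, was at 261, 240 and 286 CPM in Tumor and at 7.6, 27.4 and 2.46 CPM in ITF1, Rel and ITM (4.39 ± 0.59, adjusted p = 0.000195). Maff, a small MAF factor, was at 42.3 to 66.8 against 4.38 to 5.93 CPM. Myc, the growth regulator, was at 291, 268 and 292 CPM in Tumor and at 41.8, 40.5 and 56.5 CPM in the lines (2.61 ± 0.22). The members without a call were Klf6, at 349 to 383 CPM against 83.3 to 269 CPM, and Ccn2, a matricellular growth factor gene, at 25 to 42.6 against 11 to 24.3 CPM. Fosl1 and Jund share over 50% of their exonic bases with a gene on the opposite strand, and the strand setting of the counting is not given in the sources used here.

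The bases just before the start of 3 of these genes are shown because the list moved as one. They are the list members with the smallest p that have a promoter in the RefSeq table of GRCm38.p6. Capitals mark matches on either strand to 6 motifs: the cyclic AMP response element CRE (TGACGTCA), its shortened form (TGACG, the short CRE), the AP-1 site (TGANTCA), the interferon-gamma activated site GAS (TTCNNNGAA), a core of the interferon response element ISRE (TTTC, any 2 bases, TTTC) and the CArG box of serum response factor. The short CRE was added after the sequences were seen.
Klf4, chr4:55532476-55532725, minus strand: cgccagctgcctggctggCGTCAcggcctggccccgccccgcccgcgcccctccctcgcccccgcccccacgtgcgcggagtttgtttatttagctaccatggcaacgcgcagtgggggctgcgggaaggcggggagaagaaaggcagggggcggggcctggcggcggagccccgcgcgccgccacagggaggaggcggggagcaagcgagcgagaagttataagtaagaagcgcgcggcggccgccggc
Fosb, chr7:19310046-19310295, minus strand: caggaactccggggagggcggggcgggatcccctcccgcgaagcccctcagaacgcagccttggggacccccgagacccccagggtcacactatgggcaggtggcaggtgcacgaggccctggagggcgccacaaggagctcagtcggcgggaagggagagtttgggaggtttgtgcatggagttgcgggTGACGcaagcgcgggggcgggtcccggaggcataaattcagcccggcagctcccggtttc
Nr4a2, chr2:57124004-57124253, minus strand: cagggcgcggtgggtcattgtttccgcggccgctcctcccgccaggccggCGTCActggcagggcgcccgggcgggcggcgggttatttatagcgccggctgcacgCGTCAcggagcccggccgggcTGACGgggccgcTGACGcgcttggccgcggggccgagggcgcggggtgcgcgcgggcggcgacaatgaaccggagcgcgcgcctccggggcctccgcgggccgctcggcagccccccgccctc
Each of the 3 held the short CRE and none of the longer motifs within these 250 bases, with 1 in Klf4, 1 in Fosb and 4 in Nr4a2. Of 32851 promoter windows of this length, 17.8% held the short CRE, 1.55% the full CRE, 6.75% the AP-1 site and 1.47% the CArG box. A match in these letters is a description and not a bound site.

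Negative feedback genes of the ERK pathway, which immediate early signals switch on, were higher in part. Of 16 tested members 7 were called higher and 0 lower (median log2 fold change 1.06). Dusp1, a phosphatase of MAP kinases, was at 152, 154 and 191 CPM in Tumor1, Tumor3 and Tumor4 and at 10.9, 12.1 and 9.23 CPM in ITF1, Rel and ITM (3.95 ± 0.14, adjusted p = 1.74e-09). The values were tight in both groups. The Sprouty genes Spry1 and Spry2 were higher too, Spry2 at 118, 90.2 and 110 CPM against 19.9, 29.3 and 23.5 CPM (2.13 ± 0.16). Dusp5 reached 14.5 to 29.3 CPM against 0.803 to 2.15 CPM. The ERK phosphatase gene Dusp6 overlapped between the groups at 156 to 193 against 59.4 to 195 CPM (adjusted p = 0.334), and Dusp7 passed the adjusted p in the lower direction only below the fold limit (-0.85 ± 0.17). The call of Spry4 ended without Tumor1 or Tumor3.

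The list of gp130 cytokines, receptors, JAK kinases and STAT3 targets had 11 of 17 tested members called higher and 0 lower (median 1.96). The ligand gene Il6 was at 26.7, 28.6 and 32 CPM in Tumor and at 0, 0.134 and 0 CPM in ITF1, Rel and ITM. Its lines held 2 counts in all, so the fitted log2 fold change of 8.97 ± 0.55 is imprecise, with an adjusted p of 1.91e-07. Stat3 itself (chromosome 11, 100885098 to 100939540) was at 276, 279 and 310 CPM in Tumor and at 63.8, 96.7 and 61.8 CPM in the lines, with 47 to 62 CPM in WT. No line reached the Tumor values (1.96 ± 0.17, adjusted p = 4.64e-06). Its target Socs3, a feedback inhibitor, was at 64.7, 103 and 122 CPM against 7.14, 10.6 and 6.53 CPM (3.58 ± 0.24). Pim1, a kinase gene that STAT3 activates, was at 32 to 45.7 against 4.91 to 6.14 CPM. The receptors were split, since Osmr (15.5 to 34.8 against 4.25 to 4.62 CPM) was called, Il6st was not past the fold limit without ITM, and Lifr was at 8 to 10.1 against 6.11 to 8.57 CPM (adjusted p = 0.337). Of the JAK kinase genes, Jak1, Jak2 and Tyk2, which serve gp130, were not called. Jak3, which does not serve gp130 but is 1 of the 11, was called. It was at 17.2, 15.7 and 22.4 CPM against 8.98, 9.1 and 5.57 CPM (1.23 ± 0.26, adjusted p = 0.00513). The call of Il11, at 0.235 to 5.2 CPM in Tumor, ended without Rel, ITM, Tumor1 or Tumor3.

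The interferon response was higher in Tumor for part of its genes, and its level differed widely among the Tumor libraries. Of 32 members 11 were called higher and 0 lower, with a median of 1.38. The summed level was 575 CPM in Tumor1, 835 in Tumor3 and 2166 in Tumor4, and 467, 656 and 213 CPM in ITF1, Rel and ITM, so Tumor1 lay below the Rel line. Tumor4 held the highest Tumor value of all 32 genes, and Tumor1 the lowest of 27. Without Tumor4, 6 members were called, and with no filter on low counts 17. Among the lines, Rel was highest in 25 genes and ITM lowest in 28. Untreated cells did not form a flat background either, with 242, 208 and 1385 CPM in WT1, WT2 and WT3. The macrophage list had its highest sum in Tumor4 too (68 CPM), and Ptprc its highest value, whose part was not tested.

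Irf8, a transcription factor gene that interferon-gamma is known to induce (chromosome 8, 120736358 to 120756694), was at 3.25, 9.26 and 29.7 CPM in Tumor1, Tumor3 and Tumor4 and at 0, 0.402 and 0.359 CPM in ITF1, Rel and ITM (5.68 ± 0.74, adjusted p = 0.000144). The guanylate-binding protein gene Gbp4 stood at 6.18, 16.9 and 97.4 CPM in Tumor and at 0.154, 0.736 and 0.0599 CPM in the lines (6.95 ± 0.98, adjusted p = 0.000264). Tgtp1, an interferon-induced GTPase gene, was at 1.95, 9.06 and 39.8 CPM and had no count in any line, so it was at least 73.5-fold higher on the Tumor mean. All 3 genes rank the Tumor libraries alike and do not overlap with the lines. Irf1, the first factor of the response, was at 35.4, 64.6 and 173 CPM against 17.2, 17.5 and 12.1 CPM (2.56 ± 0.48, adjusted p = 0.00228). Targets of type I interferon did not move as one. Oasl2 was called at 10.1, 13.9 and 35.5 CPM against 2.76, 4.55 and 0.359 CPM (2.99 ± 0.79, adjusted p = 0.0181), whereas Ifit1 was at 23.1, 16.9 and 39.3 CPM in Tumor and at 34.9, 17.5 and 3.35 CPM in the lines (0.52 ± 0.74, adjusted p = 0.67), and Isg15 at 10.3 to 15.8 against 1.5 to 11.1 CPM (adjusted p = 0.505). In WT3 Ifit1 and Isg15 stood at 48.2 and 48 CPM, above every Tumor library, while Irf8, Gbp4 and Tgtp1 stood at 0.059, 0.059 and 0 CPM there. These examples were picked after their values were seen. Calls of Gbp2, Igtp, Oasl2, Socs1 and Ifi47 ended without Tumor4. Gbp and Tgtp genes have close copies, and reads that match several places are not in the counts, so their levels are uncertain.

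The promoters of the 3 called members with the smallest p and an entry in the same RefSeq table are shown for comparison with the immediate early genes, with the same capitals. Irf8 has 2 starts in the table, and the one nearest to the annotated gene start is given.
Irf8, chr8:120736108-120736357, plus strand: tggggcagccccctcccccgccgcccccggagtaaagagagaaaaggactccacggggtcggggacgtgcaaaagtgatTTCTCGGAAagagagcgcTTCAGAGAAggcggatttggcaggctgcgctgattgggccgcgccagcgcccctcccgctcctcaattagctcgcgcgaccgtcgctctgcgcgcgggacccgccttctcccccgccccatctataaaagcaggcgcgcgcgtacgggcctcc
Gbp5, chr3:142496684-142496933, plus strand: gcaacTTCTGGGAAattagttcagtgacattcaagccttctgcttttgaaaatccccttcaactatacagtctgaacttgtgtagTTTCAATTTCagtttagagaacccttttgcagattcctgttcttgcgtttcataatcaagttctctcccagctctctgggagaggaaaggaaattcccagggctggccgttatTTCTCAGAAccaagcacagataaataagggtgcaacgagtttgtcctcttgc
Tgtp1, chr11:48992247-48992496, minus strand: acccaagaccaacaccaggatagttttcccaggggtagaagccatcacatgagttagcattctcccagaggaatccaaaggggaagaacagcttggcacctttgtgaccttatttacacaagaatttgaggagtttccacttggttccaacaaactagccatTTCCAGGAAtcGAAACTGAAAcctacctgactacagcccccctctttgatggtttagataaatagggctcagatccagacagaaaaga
All 3 held a GAS match, 2 in Irf8, 2 in Gbp5 and 1 in Tgtp1, where 7.02% of the 32851 windows held one. Gbp5 and Tgtp1 also held the ISRE core, which 2.98% of the windows held.

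MHC class I genes and the machinery that cuts and loads their peptides followed the same order of libraries. Of 22 members 14 were called higher and 0 lower (median 1.80), 8 without Tumor4 and 9 with only the compared libraries fitted. Tumor4 was the highest Tumor library in 19 of the 22 and Tumor1 the lowest in 17. The heavy chain gene H2-K1 (chromosome 17, 33996017 to 34000347) was at 219, 372 and 726 CPM in Tumor1, Tumor3 and Tumor4 and at 79.9, 136 and 12 CPM in ITF1, Rel and ITM. The groups did not overlap (2.53 ± 0.66, adjusted p = 0.017), but the adjusted p was 0.0769 without Tumor4. H2-D1 (chromosome 17, 35262730 to 35267499) was at 297, 565 and 1074 CPM against 169, 291 and 77.5 CPM (1.85 ± 0.47, adjusted p = 0.0149), and 0.0817 without Tumor4. The light chain gene B2m overlapped, at 712, 1138 and 2004 CPM against 447, 1091 and 256 CPM (adjusted p = 0.124). The immunoproteasome subunit Psmb8 was at 14, 37.8 and 129 CPM in Tumor and at 0.691, 3.21 and 0.419 CPM in the lines (5.38 ± 0.79, adjusted p = 0.000364). Nlrc5, the transactivator of class I genes, was at 20.2, 43.7 and 91.6 CPM against 5.53, 11.4 and 2.76 CPM (2.99 ± 0.53). H2-Q7 was at 4.23 to 6.36 CPM with no count in any line (at least 24.3-fold higher), H2-Q6 and H2-Q4 were called as well, and all H2 genes are similar enough in sequence that their counts are uncertain. The general chaperones Calr, Canx and Pdia3 were not called.

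MHC class II genes, which professional antigen-presenting cells express and which interferon-gamma can induce elsewhere, had 6 of 8 tested members called higher (median 5.34). Without Tumor4 the median was 3.82 and 5 were called, with H2-DMa losing its call. Cd74, the invariant chain gene, was at 12.7, 30 and 159 CPM in Tumor1, Tumor3 and Tumor4 and at 0.614, 1.67 and 0.419 CPM in ITF1, Rel and ITM (6.21 ± 0.87, adjusted p = 0.000264). H2-Ab1 was at 4.23, 14.5 and 51.3 CPM against 0.18 to 1.07 CPM. The regulator Ciita had no count in Tumor1 and stood at 2.21 and 10.6 CPM in Tumor3 and Tumor4. The class II sum was 28.6, 86.4 and 395 CPM in Tumor and 8.99 to 28.1 CPM in the lines. The macrophage list summed to 45.8, 56.2 and 68 CPM in Tumor, and which cells held the class II transcripts was not tested. Among ligands of immune checkpoints, Cd276 was the sole call among 8 tested (12.5%, against 8.36% of all genes). With melanocyte scaling or with no filter 4 were called. Cd276 was at 47.5, 41.3 and 29.4 CPM against 10.4, 19 and 14 CPM (1.44 ± 0.22, adjusted p = 0.000523). Cd274, which encodes PD-L1, was at 24.4, 37.2 and 74.9 CPM in Tumor and at 15, 29.7 and 4.73 CPM in the lines (1.48 ± 0.51, adjusted p = 0.0585).

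**Figure D3:**
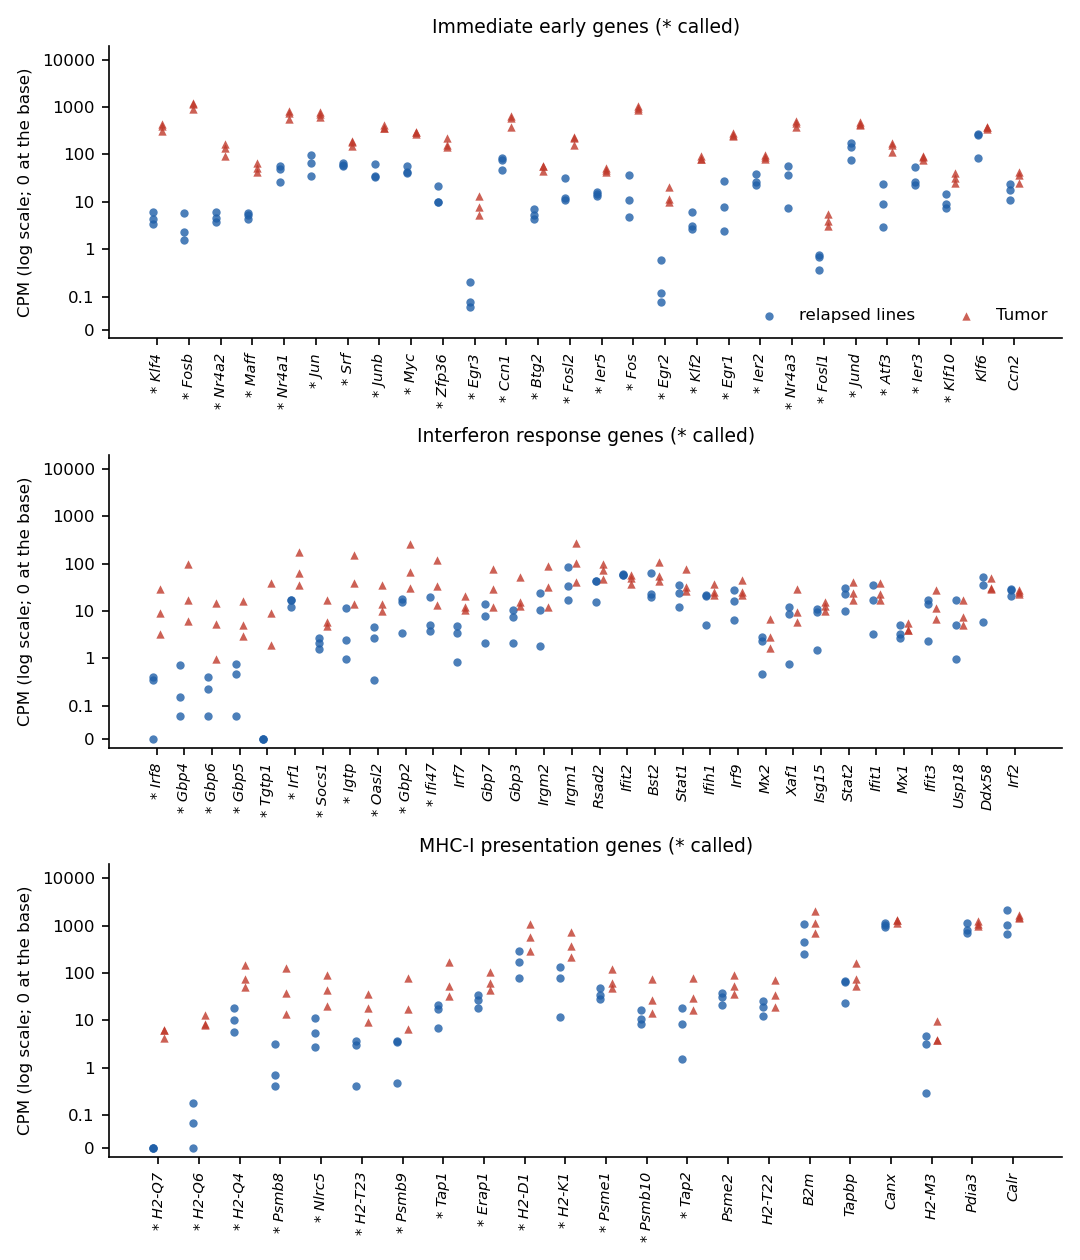
CPM on a log axis of every tested member of 3 lists in the Tumor libraries (triangles) and the relapsed lines (circles), ordered by p, with zeros at the base and an asterisk on called genes. The immediate early genes are tight and separate in all 28 cases, whereas interferon and MHC-I genes fan out within Tumor, with Tumor4 highest for all 32 and for 19 of 22.

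Genes of secreted products included many with the largest fold changes. Of 18 collagen genes tested 17 were called higher (median 5.90), and of 29 other matrix and remodelling genes 25 (median 4.15), with 0 lower in either. Collagens summed to 12721 CPM in Tumor1, 10092 in Tumor3 and 8770 in Tumor4 and to 161 to 232 CPM in the lines. Tumor1 was the highest Tumor library for 16 of the 18. The fibroblast marker sum was also highest there (10475 CPM). However, 3 of its 10 genes are collagens of this same list and make up most of that sum, so the shared order is built in. Col1a1 was at 2655, 2096 and 1922 CPM in Tumor and at 2.61, 0.87 and 2.34 CPM in the lines (10.16 ± 0.36, adjusted p = 1.74e-09). The one collagen that was not called, Col7a1, stood at 1.41 to 2.12 CPM in Tumor and at 14.4, 1.61 and 1.38 CPM in ITF1, Rel and ITM. Fibronectin (Fn1) was at 1220, 1083 and 1045 CPM against 110, 40.2 and 48.7 CPM (4.07 ± 0.40). The lines were not empty of matrix transcripts. Sparc was at 1776, 1450 and 1426 CPM in Tumor and at 1708, 1068 and 804 CPM in the lines (adjusted p = 0.478), and the collagen chaperone gene Serpinh1 at 879 to 1237 against 703 to 935 CPM (adjusted p = 0.197). Neither Mmp14 nor Timp2 was called. Calls of Col15a1 and Fbln1, at 13.5 to 50 and 58.7 to 131 CPM in the lines, ended without ITF1 or Rel, and that of Col15a1 also without Tumor1 or Tumor4.

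Chemokine and cytokine genes had 16 of 21 tested members called higher and 0 lower, and 8 of them had no count in any line. Their median log2 fold change was 7.82, or 4.44 with those 8 at the bound that 3 counts allow. Cxcl1, which attracts neutrophils, was at 114, 101 and 93.9 CPM in Tumor and had 1 count in all lines together (11.49 ± 0.37, adjusted p = 1.09e-09). Cxcl12, the ligand of CXCR4 and a product of stromal cells, stood at 85.2, 68.4 and 69.9 CPM with no count in any line (at least 323-fold higher). The monocyte attractant Ccl2 was at 42.6, 36.2 and 32.5 CPM, again with none in the lines (at least 161-fold). Cxcl9, an interferon-gamma target, was at 17.9, 22.9 and 48 CPM against 1 count in all lines, highest in Tumor4 like the interferon genes. By contrast Cxcl10 was present in culture at 42.7, 32.9 and 60.5 CPM and at 101, 99.4 and 210 CPM in Tumor (1.59 ± 0.38, adjusted p = 0.0107), a call that ended without Tumor4. The TGF-beta ligand genes Tgfb1, Tgfb2 and Tgfb3 were not called. Complement had 11 of 14 members called higher and 1 lower (median 7.69, or 4.70 with genes absent from the lines at their bound). C3 was at 475, 754 and 767 CPM in Tumor with 2 counts in all lines together (13.48 ± 0.42, adjusted p = 1.09e-09), and C4b at 190 to 258 against 0.18 to 3.08 CPM. Cd59a, which shields cells from the membrane attack complex, was the lower one at 6.04 to 6.83 against 9.05 to 21.4 CPM (-1.16 ± 0.32, adjusted p = 0.0238). Its call ended without Rel or any 1 of the Tumor libraries. C1qa, C1qb and C1qc, which macrophages make, were at 4.23 to 7.77 CPM and absent from the lines.

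Of 19 genes of dedifferentiation and plasticity, 8 were called higher and 0 lower (median 0.43), or 5 with libraries thinned to one depth. The receptor kinase gene Axl was at 67.9, 76.3 and 116 CPM in Tumor and at 26.7, 19.5 and 11.6 CPM in the lines (2.18 ± 0.37, adjusted p = 0.00112). Egfr was at 33.5, 21.3 and 20.2 CPM with no count in any line or in WT (at least 109-fold). The transcription factor genes Twist1, Snai1 and Zeb1 were at 6.83 CPM or less in Tumor, and all 3 were called. These low levels stood beside a fibroblast marker sum of at least 7515 CPM, and fibroblasts are known to express Egfr and Twist1. The source cell was not tested. Vim, Zeb2, Yap1 and Sox9, at 2075 to 2337, 226 to 264, 161 to 179 and 9.43 to 15.1 CPM in Tumor, overlapped with the lines. The call of Ngfr ended without Rel, Tumor1 or Tumor4. Of 20 actomyosin and junction genes of cell-in-cell formation, 5 were called higher: Rnd3 at 51, 54.7 and 71.1 CPM against 19, 6.16 and 10.1 CPM (2.33 ± 0.32), Rhob at 212 to 291 against 64.6 to 118 CPM (1.34 ± 0.27), Myh10, Myl9 and Vcl. Vcl lost its call without ITM or Tumor4. The kinases Rock1 and Rock2 and the junction genes Ctnnb1, Cdh1 and Cdh2 were not called, with Ctnnb1 at 1396 to 1585 against 1370 to 1678 CPM (-0.09 ± 0.16).

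In glycolysis and hypoxia genes the lines themselves differed by more than the groups. Of 34 genes 9 were called higher and 0 lower (median 0.77), but ITF1 summed to 21567 CPM, above all Tumor libraries (13961, 18048 and 18643 CPM), while Rel and ITM stood at 10042 and 8959. ITF1 was the highest line in 32 of the 34 genes and ITM the lowest in 28. Leaving ITF1 out raised the count of higher calls from 9 to 20, and glmTreat, which tests against the fold limit itself, called 1. Ldha, the lactate dehydrogenase gene (chromosome 7, 46841475 to 46855627), was at 1802, 2488 and 2515 CPM in Tumor and at 4042, 1091 and 1224 CPM in ITF1, Rel and ITM (0.10 ± 0.42, adjusted p = 0.902). Slc16a3, a lactate exporter gene, was at 177, 256 and 223 CPM against 238, 17.9 and 5.03 CPM. Every Tumor library lay above Rel and ITM for both genes, while ITF1 lay above every Tumor library for Ldha and within their range for Slc16a3. The hexokinase genes were higher in Tumor than in all lines: Hk1 was at 320, 334 and 337 CPM against 161, 136 and 120 CPM (1.25 ± 0.21, adjusted p = 0.00113), and Hk2 at 218, 257 and 290 CPM against 137, 113 and 80.8 CPM (1.21 ± 0.22). Car9, a carbonic anhydrase gene and a classic target of hypoxia-inducible factor, was at 118, 238 and 254 CPM in Tumor and at 67.6, 10.6 and 3.89 CPM in the lines (2.91 ± 0.72, adjusted p = 0.0131). Vegfa was at 285, 266 and 291 CPM against 96.3, 55.2 and 19 CPM (2.31 ± 0.76, adjusted p = 0.0492) and lost its call without Rel, ITM or any 1 of the Tumor libraries. Adm likewise lost its call without Rel or any 1 of the Tumor libraries, P4ha2 without Rel, and Slc2a1 without Rel or ITM.

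**Figure D4:**
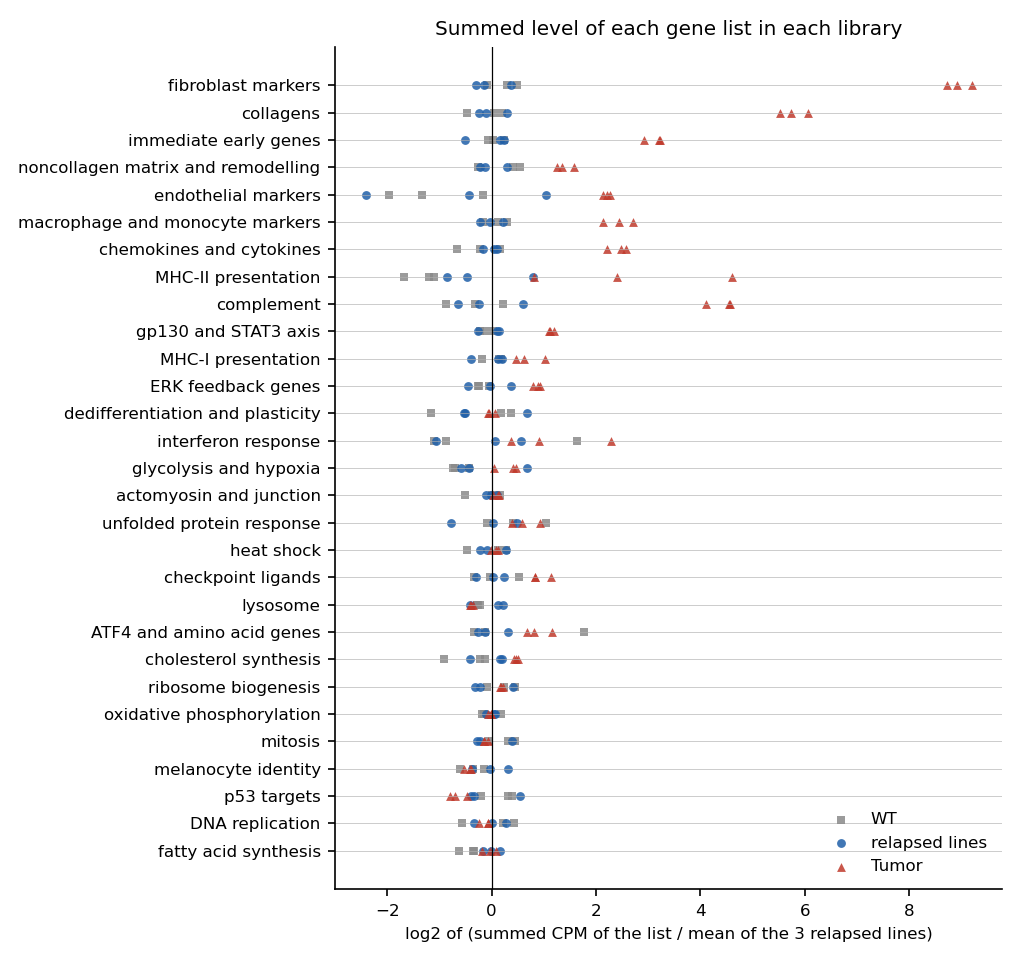
Log2 of each list's summed CPM in a library over the mean of the 3 relapsed lines, for Tumor (triangles), the lines (circles) and WT (squares), with lists ordered by the net share of members called. Tumor separates from all lines from the fibroblast markers down to the chemokines, complement, gp130 and ERK lists, ITF1 lies to the right of Tumor for glycolysis and hypoxia, and the groups overlap for mitosis, oxidative phosphorylation and ribosome biogenesis.

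Tumor and lines did not separate in the genes of the cell cycle and of basic metabolism. No member of the mitosis (28 genes), ribosome biogenesis (25) or oxidative phosphorylation (25) lists was called by edgeR, and DESeq2 called 0 in each too, where 2, 7 and 1 members had an unadjusted p under 0.05. Their median log2 fold changes were -0.17, 0.14 and -0.05. Mki67, the proliferation marker, was at 308, 369 and 301 CPM in Tumor1, Tumor3 and Tumor4 and at 230, 303 and 406 CPM in ITF1, Rel and ITM (0.06 ± 0.20, adjusted p = 0.873). Top2a was at 436 to 504 against 411 to 642 CPM (-0.09 ± 0.16). Among the lines ITM held the highest value of all 28 mitosis genes and all 25 ribosome biogenesis genes. Npm1 was at 1405 to 1437 CPM in Tumor and at 1134, 1013 and 1780 CPM in ITF1, Rel and ITM. Atp5b, a subunit of ATP synthase, was at 1775 to 1952 against 1852 to 1918 CPM (0.00 ± 0.15). Of 28 DNA replication genes, the cyclin gene Ccne2 alone was called, lower at 21.9 to 25.4 against 36.2 to 61 CPM (-1.06 ± 0.34, adjusted p = 0.0437). That call ended without ITF1, ITM or any 1 of the Tumor libraries.

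The 24 cholesterol synthesis genes had a median log2 fold change of 0.43. Of them, 1 was called higher (4.17%, against 8.36% of all genes), and 6 were higher at the adjusted p alone. In 12 every Tumor library was above every line, as was the case for 20.1% of all genes tested. In fatty acid synthesis Me1 was called lower at 43.7 to 55.6 against 84.3 to 117 CPM (-1.02 ± 0.17), not past the fold limit without Rel, Tumor3 or Tumor4. The 18 genes of the ATF4 response had a median log2 fold change of 1.11. In 12 of them every Tumor library was above every line, against 20.1% of all genes tested. How many were called depended on the fit. With all 12 libraries fitted 1 was called by edgeR and 3 by DESeq2, while with only the compared libraries fitted these were 9 and 10, with melanocyte scaling 7 and with no filter on low counts 10. The list summed to 7529 CPM in WT1 against 2029 and 1747 CPM in WT2 and WT3. The amino acid transporter gene Slc7a5, the 1 call, was at 594, 470 and 493 CPM against 161, 210 and 304 CPM (1.20 ± 0.29, adjusted p = 0.0108). Tumor1 was the highest Tumor library in 16 of those 18 genes and in all 13 of the unfolded protein response. In the latter list Dnajb9 and Herpud1 were called (15.4%, against 8.36% of all genes), and 5 genes with melanocyte scaling. The call of Herpud1 ended without any 1 library other than ITM. In the heat shock list Hspa1a, Hspa1b and Hspb1 were called higher at 11.8 CPM or less, and the lens and muscle chaperone gene Cryab was lower at 111, 128 and 138 CPM against 697, 417 and 310 CPM (-1.92 ± 0.30, adjusted p = 0.000591). Hspa1b lost its call without Tumor4. Of 16 p53 targets 2 were called higher (Plk2 and Fas) and 2 lower (12.5% each, against 8.36% and 2.31% of all genes), with a median of -0.54. At the adjusted p alone, 2 were higher and 6 lower. Every Tumor library was below every line in 6 of them and above in 3, against 17.4% and 20.1% of all genes tested. Ccng1 was at 149, 134 and 112 CPM in Tumor and at 462, 264 and 300 CPM in the lines (-1.38 ± 0.21, adjusted p = 0.000447), and Phlda3 at 38.8 to 65 against 102 to 148 CPM (-1.23 ± 0.20). Without ITM 4 members were lower, and ITF1 was the highest line in 13 of the 16. Fas lost its call without Tumor3 or Tumor4. Lysosome genes had 2 of 28 higher (7.14%, against 8.36% of all genes) and 0 lower by edgeR or DESeq2. The 2 were the proteases Ctsk (38.4, 34.2 and 42.8 CPM against 1.23 to 4.55 CPM) and Ctss. At an unadjusted p under 0.05, 11 were lower, 9 of them at the adjusted p without the fold limit, and 3 were called without ITM. Ctsd was nearest at 609, 488 and 482 CPM against 940, 1414 and 802 CPM (adjusted p = 0.00349), just short of the fold limit.

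**Figure D5:**
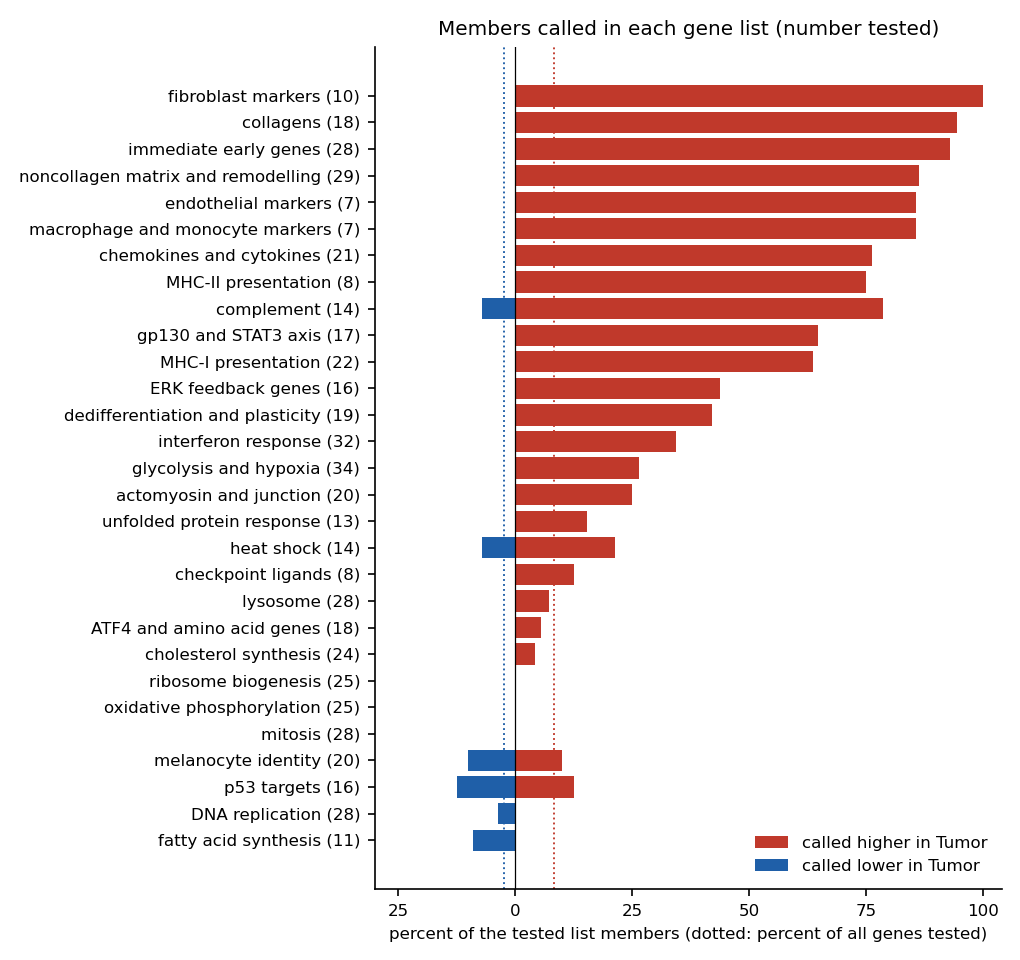
Percent of the tested members of each list called higher (to the right) or lower (to the left) in Tumor, with the number tested in brackets and dotted lines at the shares over all genes, 8.36% and 2.31%. Fibroblast markers (10 of 10), collagens (17 of 18) and immediate early genes (26 of 28) lead, and mitosis, ribosome biogenesis and oxidative phosphorylation have no called member.

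The 10 lower genes with the smallest p and no overlap between groups came from no single list. The brain proteoglycan gene Bcan stood out in size, at 0.325, 0.805 and 0.471 CPM in Tumor1, Tumor3 and Tumor4 and at 19.1, 35.7 and 62.7 CPM in ITF1, Rel and ITM, with 5.66 to 22 CPM in WT (-6.08 ± 0.64, adjusted p = 2.49e-05). Dync1i1, a dynein intermediate chain gene, was at 0.325 to 1.01 against 11.3 to 27.7 CPM (-4.70 ± 0.56). Both were near the floor in Tumor and well above it in every line. The rest changed less: Rhod, a small GTPase gene, was at 15.9 to 20.8 against 51.9 to 88.1 CPM (-1.94 ± 0.21), Gxylt2 at 33.8 to 64.7 against 138 to 177 CPM (-1.76 ± 0.21) and Cavin2, a caveola protein gene, at 26 to 30.9 against 70.3 to 91.5 CPM (-1.48 ± 0.14). Cbx6, a Polycomb protein gene, was at 60.8, 60.6 and 57.9 CPM in Tumor and at 137, 129 and 128 CPM in the lines (-1.13 ± 0.11, adjusted p = 1.05e-05), the smallest p in this direction. Mis12, Zfp958, Klhl42 and the endolysosomal channel gene Mcoln3 complete the 10. Cbx6, Mis12, Klhl42 and Mcoln3 passed the adjusted p but not the fold limit when scaled on melanocyte genes, and Mcoln3 also without ITF1. Of the 344 lower genes, already chosen as low in Tumor, 250 were below all WT libraries in every Tumor library. Over all 14924 genes tested, 2255 were.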

How the data were processed

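Libraries were grouped by the titles and source labels given for each sample. The authors trimmed reads with fastp 0.19.6, aligned them to GRCm38 with STAR 2.7.1a and used DESeq2 1.24.0, per the submitters' processing notes and the methods. They deposited raw read counts per gene for each library, with no normalization. The strand setting and annotation release are not given in the sources used here, and reads that match several places are not in the gene counts. Reads not on genes were kept out of library sizes. Between 38.5% and 39.1% of the reads of the compared libraries fell on genes. Symbols came from a gene name table that covered 54165 of 54232 identifiers.

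Genes were filtered with filterByExpr and tested with edgeR 4.0.16 (quasi-likelihood, TMM, all 12 libraries in 1 fit, contrast Tumor minus relapsed lines) in R 4.3.3, with summaries in Python 3.11.15. Standard errors were obtained by dividing each fold change (log2) by the root of its F statistic. CPM values were computed from the counts and TMM-scaled library sizes, and bounds ("at least") use 3 counts in the shallowest line (0.2304 CPM). DESeq2 1.42.0, other scalings, filters, a fit of the compared libraries alone, thinning and each library left out were alternatives. The tests were checked on simulated data. Same-group pairs of libraries differed by more than sampling noise. Genes named in each list were picked by p and size within the list and from the 10 with the smallest p in each direction. The members and lists were chosen with earlier results of these data known, and other list members named were chosen after their values were seen. With 3 libraries a group the p-values rest on the spread pooled across genes. Some results are not reported here.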

Additional observations from a re-analysis of the deposited data

How the results depend on the processing

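The count of 1247 higher genes was 464 with at least 10 counts required in every compared library, which leaves fewer genes and drops those absent from the lines, 825 with glmTreat and 809 with libraries thinned to one depth. The count of 344 lower genes was 1155 at the adjusted p alone, 126 when scaled on melanocyte identity genes, 519 with no filter on low counts, 183 with at least 10 counts and 50 with glmTreat. DESeq2 gave 1217 and 323. With a library left out, higher genes ranged from 1092 to 1420 and lower genes from 235 to 471, and the 400 genes at the floor in every line became 425 to 501. A floor of 10 counts gave 265 such genes, and 0 counts in the lines gave 217. The cause of these shifts was not tested beyond the construction of each setting. Of 2023 values for 125 named genes under the alternatives, 1925 kept their direction and side of the limits, 91 fell short, 7 newly passed and 0 reversed. No paired analysis was possible because the relapsed lines carry no replicate number in the labels.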
